A study of Mus musculus with 16 samples.

Results

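Glucose enters skin cells through carriers in the plasma membrane and is split to pyruvate by the enzymes of glycolysis. The genes described here are the 10 glucose uptake and glycolysis genes Slc2a1, Hk1, Hk2, Gpi1, Pfkl, Pfkp, Tpi1, Pgk1, Eno1 and Ldha, taken by gene symbol from the count tables as the glucose carrier and the glycolytic enzymes outside the muscle isoforms. A row was found for each of the 10 among 23282 rows, 9 of them had counts, and the same 9 were among the 14854 rows that passed the filter on low counts. Total RNA from the dorsal skin of C57BL/6N male mice (genotype WT) was sequenced with QuantSeq, which reads only the 3′ end of polyadenylated RNA, in 4 libraries for each of 4 groups. Mice of the Cont group were fed normal chow. Mice of the LowAhR group received a diet low in ligands of the aryl hydrocarbon receptor (AhR), a sensor of small aromatic molecules, for 12 weeks, with paper bedding free of such ligands. Mice of the LowAhR+AD group were fed the same diet, and from 2 weeks of it the dorsal skin was treated 2 times a week with 1% 2,4-dinitrochlorobenzene (DNCB), a hapten that causes an eczema-like dermatitis, over 10 weeks. Mice of the LowAhR+AD+BJ group had the diet and DNCB and were also given the herbal extract Bojungikgi-tang (BJIKT) by gavage at 1 g/kg per day. All mice were bought at 3 weeks of age and adapted for 1 week. No group received DNCB or BJIKT on normal chow, so that the effect of either without the low AhR ligand diet cannot be told apart from its effect on that diet.

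The libraries held 7080508 to 8773876 counts in the Cont and LowAhR groups and 10614393 to 13467477 counts in both groups treated with DNCB, without overlap. At these depths a count of 0 allows up to 0.229 to 0.406 counts per 1000000 (CPM), depending on the library, and such limits cover counting error only. The keratinocyte markers Krt5, Krt14, Krt15, Krt1, Krt10 and Trp63 were detected in all 16 libraries, with a summed level of 4795 CPM or more. LowAhR+AD replicate 1 stood apart from the rest. Where the mean share of a gene in the other libraries of a group gave 20 to 40 counts at a library's depth, no count was found for 32.6% of genes in LowAhR+AD replicate 1 and for 13.8% or less in any other library. The results in which this library weighs most are therefore given with and without it. The text gives levels as CPM scaled with TMM factors, without division by length since QuantSeq primes near the poly(A) tail, and differences as log2 fold changes with a Benjamini-Hochberg adjusted p over all 14854 tested rows from edgeR's quasi-likelihood test, called at an adjusted p under 0.05. Exact permutation tests of 4 libraries against 4 are two-sided and cannot give a p under 0.0286. The p-values measure the spread between these samples, which the study describes as 4 skin samples drawn at random from each group.

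In the pathway, the carrier GLUT1, encoded by Slc2a1, lets glucose into the cell, a hexokinase traps it as glucose 6-phosphate, and phosphofructokinase commits it to glycolysis. The lower steps yield ATP and pyruvate, and lactate dehydrogenase A turns pyruvate into lactate. In skin, dividing keratinocytes depend on GLUT1, and glycolytic genes are textbook targets of the hypoxia-inducible factor HIF-1, whose partner ARNT also pairs with AhR.

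The 250 bases before the RefSeq start of Slc2a1, Hk2, Pfkl and Pgk1 are shown because these were the 4 genes that passed the test in a comparison. Each is written from 5′ to 3′ on the gene's own strand in the build GRCm38, with capitals marking ACGTG, the core letters bound by HIF-1, and GCGTG, the core letters bound by AhR with ARNT, on either strand (so also CACGT and CACGC).
Slc2a1, chr4:119108495-119108744, plus strand: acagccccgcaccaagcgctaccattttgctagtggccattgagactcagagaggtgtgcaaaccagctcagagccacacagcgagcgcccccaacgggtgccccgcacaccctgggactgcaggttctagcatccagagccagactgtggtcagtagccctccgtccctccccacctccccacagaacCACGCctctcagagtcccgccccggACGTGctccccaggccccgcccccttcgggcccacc
Hk2, chr6:82774455-82774704, minus strand: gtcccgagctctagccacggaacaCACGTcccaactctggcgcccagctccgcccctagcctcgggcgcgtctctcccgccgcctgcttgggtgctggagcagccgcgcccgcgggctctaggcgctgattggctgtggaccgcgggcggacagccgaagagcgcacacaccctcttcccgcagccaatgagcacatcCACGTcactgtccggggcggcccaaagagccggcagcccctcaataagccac
Pfkl, chr10:78009808-78010057, minus strand: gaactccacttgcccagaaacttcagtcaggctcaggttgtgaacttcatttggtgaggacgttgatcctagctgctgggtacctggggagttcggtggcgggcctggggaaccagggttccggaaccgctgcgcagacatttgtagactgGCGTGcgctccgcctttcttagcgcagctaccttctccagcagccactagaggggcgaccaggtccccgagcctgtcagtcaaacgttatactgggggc
Pgk1, chrX:106186850-106187099, plus strand: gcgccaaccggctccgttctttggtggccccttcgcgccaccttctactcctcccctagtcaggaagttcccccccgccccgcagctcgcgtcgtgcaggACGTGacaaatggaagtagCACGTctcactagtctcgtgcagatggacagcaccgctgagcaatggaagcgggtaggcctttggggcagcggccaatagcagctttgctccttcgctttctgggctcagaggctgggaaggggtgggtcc

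ACGTG lay 36 bases before the start of Slc2a1, 226 and 52 bases before that of Hk2, and 150 and 131 bases before that of Pgk1. GCGTG lay 61 bases before the start of Slc2a1 and 99 bases before that of Pfkl. The window of Pgk1 thus held ACGTG on both strands within a short stretch, and the window of Pfkl held no ACGTG. Of the 10 genes, 4 had ACGTG in a window of at least 1 RefSeq start (Slc2a1, Hk2, Pgk1 and Ldha), 6 had GCGTG, and 1, Ldha, had CACGTG, which contains ACGTG and is the E-box read by MYC. Among all 32851 windows of this length, 16.6% held ACGTG, 28.2% held GCGTG and 6.02% held CACGTG, and among the 14124 windows of tested genes the shares were 20.2%, 41.7% and 7.84%. The shares count single windows, while the counts above take a gene with any of its windows. Hk1 and Ldha have 2 windows and Eno1 has 3, so the counts of genes cannot be set directly against these shares. These matches are letters in a window and not measured binding.

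Of the 9 genes with counts, 4 passed the test in at least 1 of the 5 comparisons: Slc2a1, Hk2, Pfkl and Pgk1. In LowAhR+AD against LowAhR, 1 of 9 rose (Slc2a1) and 0 fell, beside 6.42% of all tested rows that rose and 6.21% that fell. Against Cont, LowAhR+AD had 2 that rose (Pfkl and Pgk1) and 1 that fell (Hk2), beside 12.3% and 9.47% of all rows. With BJIKT, in LowAhR+AD+BJ against LowAhR, 1 rose (Slc2a1) and 0 fell, beside 3.64% and 3.12%. For the diet alone (LowAhR against Cont) and for BJIKT (LowAhR+AD+BJ against LowAhR+AD), edgeR called 0 of the 9, and 0% of all tested rows. An unadjusted p under 0.05 was found for 3 of the 9 for the diet and 0 for BJIKT, beside 13.7% and 9.46% of all tested rows, and DESeq2 and limma voom also called 0 of them in both. The median log2 fold change of the 9 genes was 0.073 in LowAhR against Cont, 0.19 in LowAhR+AD against LowAhR and 0.29 in LowAhR+AD against Cont, where the median of all tested rows was 0.026, 0.038 and 0.045. Without LowAhR+AD replicate 1 the median of the 9 was 0.039 in LowAhR+AD against LowAhR and 0.03 in LowAhR+AD against Cont. Their summed level was 1146 ± 74.6 CPM in Cont, 1139 ± 153 in LowAhR, 1209 ± 305 in LowAhR+AD and 1218 ± 73.2 in LowAhR+AD+BJ (SD, n = 4). In LowAhR+AD this sum was 1576 CPM in replicate 1 and 1086 ± 223 CPM in the other 3 libraries.

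**Figure D1:**
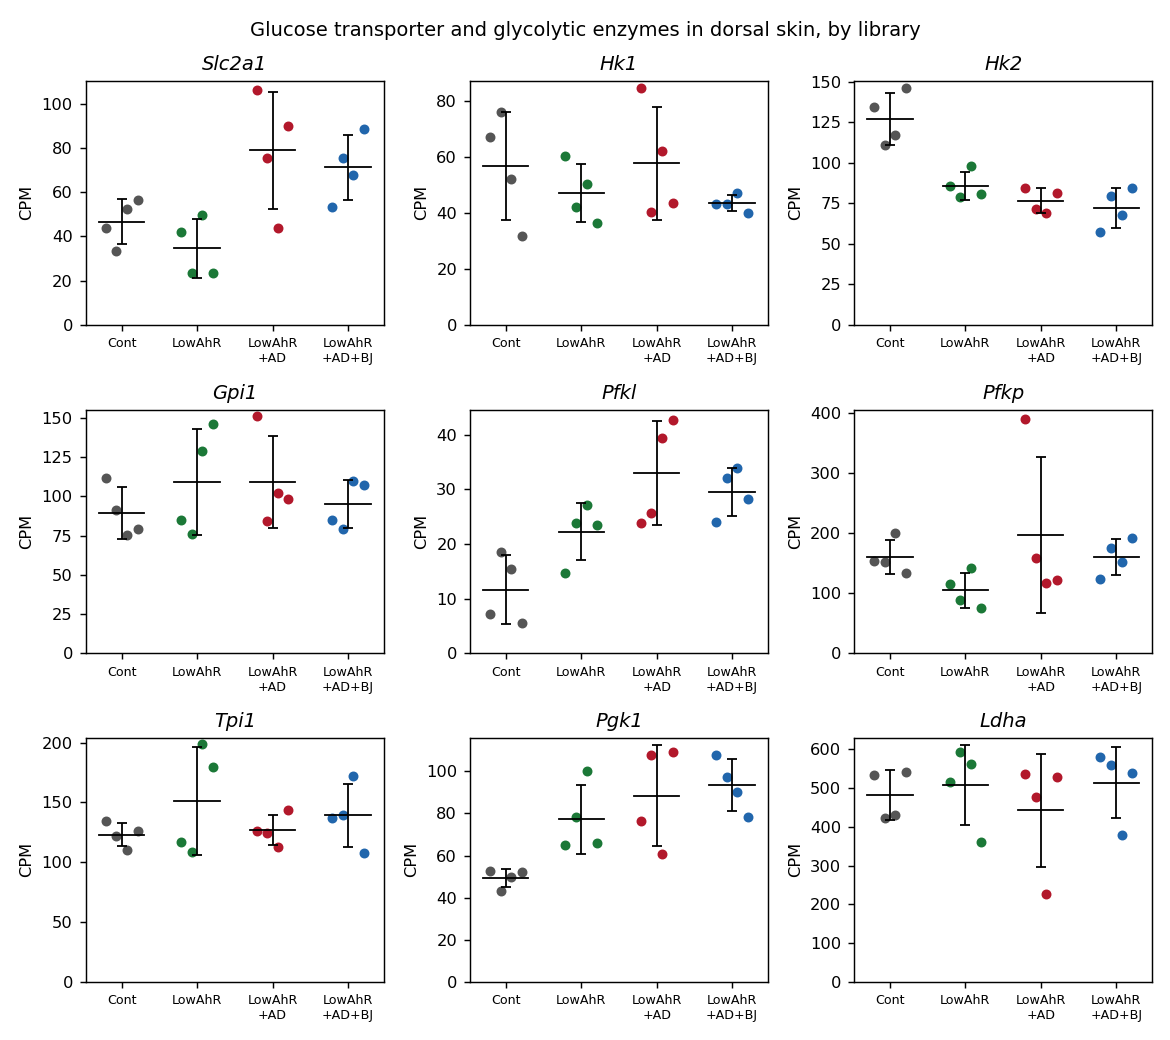
CPM of the 9 genes with counts in each library (points), with the group mean (line) and SD (bar), n = 4 per group; each vertical axis starts at 0. Slc2a1 lay higher in both groups treated with DNCB than in LowAhR, Hk2 was highest in Cont, Pfkl and Pgk1 were lowest in Cont, and LowAhR+AD replicate 1 had 389.8 CPM of Pfkp.

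Slc2a1 encodes GLUT1, the carrier for basal glucose uptake, and spans bases 119108745 to 119137330 of chromosome 4. Its level was 43.9, 33.5, 52.4 and 56.4 CPM in the Cont libraries and 41.9, 23.4, 49.6 and 23.5 CPM in the LowAhR libraries. With DNCB it was 106, 75.7, 44.0 and 90.0 CPM in the LowAhR+AD libraries and 53.4, 75.5, 67.5 and 88.4 CPM in the LowAhR+AD+BJ libraries. Thus 3 of the 4 LowAhR+AD libraries lay above every LowAhR library, replicate 3 lay among them, and all 4 LowAhR+AD+BJ libraries lay above every LowAhR library. LowAhR+AD+BJ lay above LowAhR without overlap for 8.91% of all tested rows. The group means were 46.5 ± 10.2, 34.6 ± 13.2, 78.9 ± 26.4 and 71.2 ± 14.7 CPM (SD, n = 4) in the order of the groups above. Slc2a1 in LowAhR+AD differed from LowAhR by a log2 fold change of 1.19 (standard error 0.30, edgeR adjusted p = 0.0153; exact permutation p = 0.0571) and in LowAhR+AD+BJ by 1.04 (standard error 0.30, edgeR adjusted p = 0.0429; exact permutation p = 0.0286). Against Cont, the LowAhR+AD group differed by 0.76 (95% interval 0.14 to 1.38, edgeR adjusted p = 0.0755), and LowAhR differed from Cont by -0.43 (edgeR adjusted p = 0.578). In the order LowAhR+AD, LowAhR+AD+BJ, Cont and LowAhR, each group overlapped its neighbour. In bulk skin, more cells that carry Slc2a1 and more Slc2a1 RNA per cell cannot be told apart.

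The Slc2a1 rise over LowAhR was 1.01 without LowAhR+AD replicate 1 (edgeR adjusted p = 0.0368), and without LowAhR replicate 2 it was 1.04 with an edgeR adjusted p of 0.0545. In LowAhR+AD+BJ against LowAhR the call was lost without LowAhR replicate 1, 2 or 4 or LowAhR+AD+BJ replicate 2 or 4, with edgeR adjusted p-values of 0.0627 to 0.132, while the log2 fold change of Slc2a1 stayed between 0.89 and 1.15. Against Cont, the Slc2a1 difference in LowAhR+AD was 0.96 without LowAhR+AD replicate 3 (edgeR adjusted p = 0.0250). A model of the 8 LowAhR and LowAhR+AD libraries alone gave 1.18 with an edgeR adjusted p of 0.0718. Among all other tested genes, the profile over the 16 libraries closest to that of Slc2a1 belonged to Prim1, Galnt18 and Tpd52, with a root-mean-square difference of centred log2 CPM of 0.29, 0.31 and 0.33, where the SD of Slc2a1 itself was 0.64.

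Hexokinase 2 is the regulated hexokinase of growing and insulin-responsive cells, and Hk2 (chromosome 6, bases 82725025 to 82774454, minus strand) was the only gene of the 10 that fell in a comparison. Its level was 135, 111, 117 and 146 CPM in Cont and 85.5, 78.6, 97.7 and 80.6 CPM in LowAhR. In LowAhR+AD it was 84.6, 71.6, 68.8 and 81.3 CPM, and in LowAhR+AD+BJ 57.3, 79.3, 67.4 and 84.6 CPM. All 12 libraries of the low AhR ligand diet therefore lay under the lowest Cont library. Over all tested rows, LowAhR lay under Cont without overlap for 5.63%, and LowAhR+AD for 11.8%. Against Cont, the log2 fold change of Hk2 in LowAhR+AD was -0.73 (standard error 0.18, edgeR adjusted p = 0.00672; exact permutation p = 0.0286), and it was called in each of the 8 fits that left out 1 library. LowAhR against Cont, with no overlap either, gave -0.57 (standard error 0.18, unadjusted p = 0.00440), which did not pass over all rows (edgeR adjusted p = 0.136). Hk2 differed by -0.16 in LowAhR+AD against LowAhR and by -0.085 in LowAhR+AD+BJ against LowAhR+AD (edgeR adjusted p = 0.591 and 0.902), and these groups overlapped.

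Hk1 encodes the hexokinase of most resting tissues. It had 56.8 ± 19.4 CPM in Cont, 47.2 ± 10.4 in LowAhR, 57.7 ± 20.3 in LowAhR+AD and 43.4 ± 2.84 in LowAhR+AD+BJ (SD, n = 4), and the groups overlapped in every comparison. The antisense gene Hk1os overlaps its exons, and no source used here says whether reads were counted by strand. The log2 ratio of Hk2 to Hk1 within a library, which does not depend on scaling between libraries, was 1.23 ± 0.70 in Cont and 0.47 ± 0.46 in LowAhR+AD (exact permutation p = 0.143), with overlap. Without LowAhR+AD replicate 1, LowAhR+AD had 48.7 ± 11.8 CPM of Hk1 and a log2 ratio of 0.62 ± 0.42 (SD, n = 3). The log2 fold change of Hk1 in LowAhR+AD against Cont then turned from 0.023 to -0.23.

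Phosphofructokinase is assembled from liver, platelet and muscle subunits, encoded by Pfkl, Pfkp and Pfkm. Pfkl (chromosome 10, bases 77986947 to 78009807, minus strand) had 7.19, 18.5, 15.4 and 5.51 CPM in Cont and 14.7, 23.8, 27.1 and 23.4 CPM in LowAhR. In LowAhR+AD it had 23.9, 25.7, 39.4 and 42.7 CPM, and in LowAhR+AD+BJ 24.0, 32.0, 33.8 and 28.1 CPM. Every library of both DNCB groups lay above every Cont library, and 3 of the 4 LowAhR libraries did so too. LowAhR+AD lay above Cont without overlap for 13% of all tested rows. Pfkl rose by 1.50 on the log2 scale in LowAhR+AD against Cont (standard error 0.35, 95% interval 0.76 to 2.24, edgeR adjusted p = 0.00620; exact permutation p = 0.0286). The parts of this difference were 0.93 from Cont to LowAhR (edgeR adjusted p = 0.226) and 0.56 from LowAhR to LowAhR+AD (edgeR adjusted p = 0.302), neither of which passed. Without LowAhR+AD replicate 1 the Pfkl difference from Cont was 1.61 (edgeR adjusted p = 0.00363).

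Pfkp (chromosome 13, bases 6579874 to 6649060, minus strand) had 154, 152, 200.0 and 134 CPM in Cont and 115, 89.0, 141 and 75.5 CPM in LowAhR. In LowAhR+AD it had 389.8, 158, 117 and 123 CPM, and in LowAhR+AD+BJ 123, 175, 153 and 192 CPM. The high value belonged to LowAhR+AD replicate 1, the library with many missing counts. The log2 fold change of Pfkp between LowAhR and LowAhR+AD was 0.91 (edgeR adjusted p = 0.0770), it was 0.33 without that library (edgeR adjusted p = 0.394), and 1.09 without LowAhR+AD replicate 3 (edgeR adjusted p = 0.0368). Against Cont it was 0.30 with that library and -0.28 without it. The last 400 transcript bases of Pfkp overlap Pitrm1, a gene on the opposite strand, over 100% of their 75-base stretches, so that without strand the reads of both cannot be told apart. Pitrm1, named for this overlap after its values were seen, had 32.7 ± 6.13 CPM in Cont, 38.0 ± 10.4 in LowAhR, 67.4 ± 20.7 in LowAhR+AD and 58.0 ± 13.3 in LowAhR+AD+BJ (SD, n = 4), and 80.4 CPM in LowAhR+AD replicate 1.

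The balance of the platelet and liver subunit genes was compared as a ratio within each library. The log2 ratio of Pfkp to Pfkl was 4.38, 3.03, 3.68 and 4.56 in the Cont libraries and 2.95, 1.89, 2.38 and 1.68 in the LowAhR libraries, with no overlap. It was 4.02, 2.61, 1.57 and 1.52 in LowAhR+AD and 2.35, 2.45, 2.17 and 2.76 in LowAhR+AD+BJ. As geometric means, Pfkp had 15.1 times the CPM of Pfkl in Cont, 4.67 times in LowAhR, 5.39 times in LowAhR+AD and 5.39 times in LowAhR+AD+BJ. Without LowAhR+AD replicate 1, whose ratio was the highest of its group, the value of LowAhR+AD was 3.73 times, and its log2 difference from LowAhR turned from 0.21 to -0.32. LowAhR and Cont differed by -1.69 (exact permutation p = 0.0286, the smallest that 4 against 4 can give, and 0.429 adjusted over 15 tests of ratios), which is lower in 4 of 4 LowAhR libraries but did not pass. The overlap of Pfkp with Pitrm1 also bears on this ratio. Gpi1, which encodes the isomerase between the hexokinase and phosphofructokinase steps, had 89.4 ± 16.5 CPM in Cont, 109 ± 33.9 in LowAhR, 109 ± 29.2 in LowAhR+AD and 95.2 ± 15.2 in LowAhR+AD+BJ (SD, n = 4). Its groups overlapped in every comparison, and its largest log2 fold change in size was 0.29 in LowAhR+AD against Cont (edgeR adjusted p = 0.434), which was 0.076 without LowAhR+AD replicate 1.

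**Figure D2:**
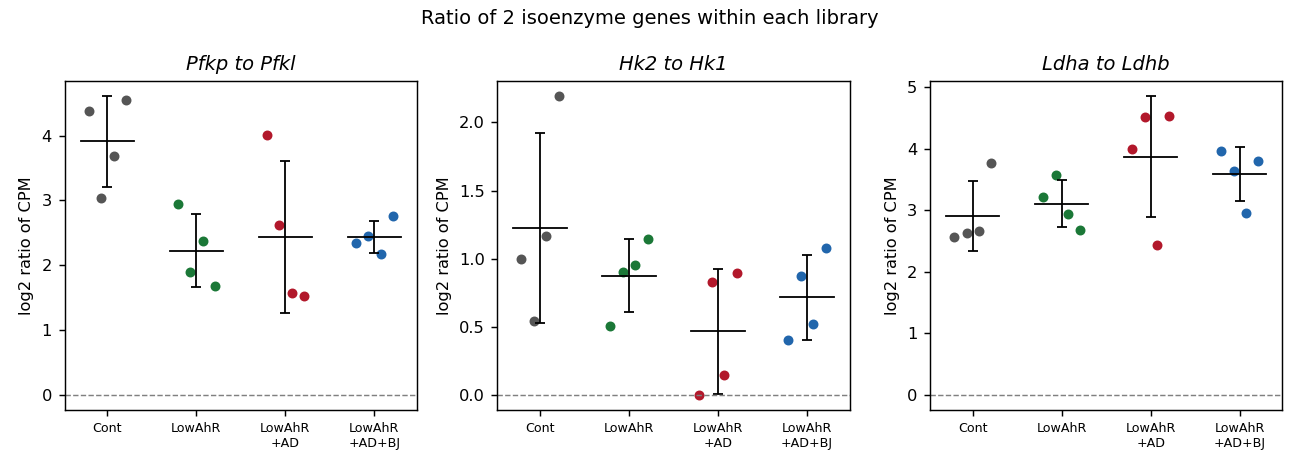
Log2 ratio of CPM of Pfkp to Pfkl, Hk2 to Hk1 and Ldha to Ldhb in each library (points), with the group mean (line) and SD (bar), n = 4 per group; the dashed line marks equal CPM. The 4 Cont libraries lay at 3.03 to 4.56 for Pfkp to Pfkl and the 4 LowAhR libraries at 1.68 to 2.95.

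Phosphoglycerate kinase 1 makes the first ATP of the lower pathway. Pgk1 (chromosome X, bases 106187100 to 106203699, plus strand) had 52.5, 43.3, 49.7 and 52.0 CPM in Cont and 65.1, 78.2, 100.2 and 65.8 CPM in LowAhR. In LowAhR+AD it had 76.3, 108, 60.5 and 109 CPM, and in LowAhR+AD+BJ 108, 97.3, 90.3 and 78.5 CPM. All 12 libraries of the low AhR ligand diet lay above the highest Cont library. Pgk1 rose by 0.84 on the log2 scale in LowAhR+AD against Cont (standard error 0.21, 95% interval 0.39 to 1.29, edgeR adjusted p = 0.00968; exact permutation p = 0.0286), and it was called in each of the 8 fits that left out 1 library. LowAhR against Cont gave 0.65 without overlap (standard error 0.21, unadjusted p = 0.00742), which did not pass over all rows (edgeR adjusted p = 0.170). From LowAhR to LowAhR+AD the difference was 0.19 (edgeR adjusted p = 0.593). Hk2 and Pgk1 thus had their Cont libraries outside the range of all others, Hk2 above and Pgk1 below. Over all tested rows, LowAhR did not overlap with Cont for 5.7% (higher) and 5.63% (lower), and LowAhR+AD for 13% and 11.8%. The share of rows with Cont outside all other groups at once was not counted.

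Tpi1 encodes triose-phosphate isomerase. It had 123 ± 9.87 CPM in Cont, 151 ± 45.2 in LowAhR, 127 ± 12.6 in LowAhR+AD and 139 ± 26.2 in LowAhR+AD+BJ (SD, n = 4). LowAhR replicates 3 and 4, with 199 and 179.6 CPM, were above all other libraries and replicates 1 and 2, with 117 and 108 CPM, were not, and the groups overlapped in every comparison. Its exons overlap those of Spsb2 on the opposite strand, but 0% of the 75-base stretches in its last 400 transcript bases occur in another gene.

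Ldha, the lactate dehydrogenase subunit that favours lactate formation, had the highest CPM of the 9 genes. Its level was 534, 423, 432 and 543 CPM in Cont and 517, 592, 561 and 362 CPM in LowAhR. In LowAhR+AD it was 535, 478, 228 and 528 CPM, and in LowAhR+AD+BJ 581, 559, 378 and 538 CPM. LowAhR+AD replicate 3 had the lowest value, and the groups overlapped in every comparison. The log2 fold change of Ldha was -0.20 in LowAhR+AD against LowAhR (95% interval -0.75 to 0.35, edgeR adjusted p = 0.663) and -0.13 in LowAhR+AD against Cont (95% interval -0.67 to 0.42, edgeR adjusted p = 0.778). One of its 2 RefSeq windows held ACGTG 5 times. The log2 ratio of Ldha to Ldhb was 3.11 ± 0.38 in LowAhR and 3.87 ± 0.99 in LowAhR+AD (SD, n = 4; exact permutation p = 0.200), with overlap.

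Whether BJIKT moved these genes was asked by comparing LowAhR+AD+BJ with LowAhR+AD. Among the 9 genes, the largest differences in size were -0.41 for Hk1 (95% interval -0.99 to 0.17, edgeR adjusted p = 0.649), -0.29 for Pfkp (-0.98 to 0.39, edgeR adjusted p = 0.799) and 0.22 for Ldha (-0.33 to 0.77, edgeR adjusted p = 0.814). Slc2a1 differed by -0.15 (95% interval -0.77 to 0.47, edgeR adjusted p = 0.897). Of the 9 genes 3 had a higher and 6 a lower fitted level with BJIKT, and all 9 overlapped between the groups. Over all tested rows, the groups did not overlap for 2.42% (higher with BJIKT) and 2.65% (lower). Without LowAhR+AD replicate 1, Hk1 differed by -0.17, Pfkp by 0.27 and Slc2a1 by 0.018. The intervals leave room for changes of the size seen for Pgk1 between LowAhR and Cont in Hk1, Pfkl, Pfkp, Gpi1, Slc2a1 and Ldha. Such a change was therefore not excluded for these genes. For Hk1, Pfkp and Slc2a1 this holds only for a fall, and for Ldha only for a rise. Among the 85 other genes of glucose metabolism described later, the lowest p in this comparison belonged to Pygb, the glycogen phosphorylase of brain and other tissues, with a log2 fold change of -1.05 (edgeR adjusted p = 0.498). Pygb was lower in 4 of 4 LowAhR+AD+BJ libraries than in every LowAhR+AD library, did not pass, and differed by -0.53 without LowAhR+AD replicate 1.

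**Figure D3:**
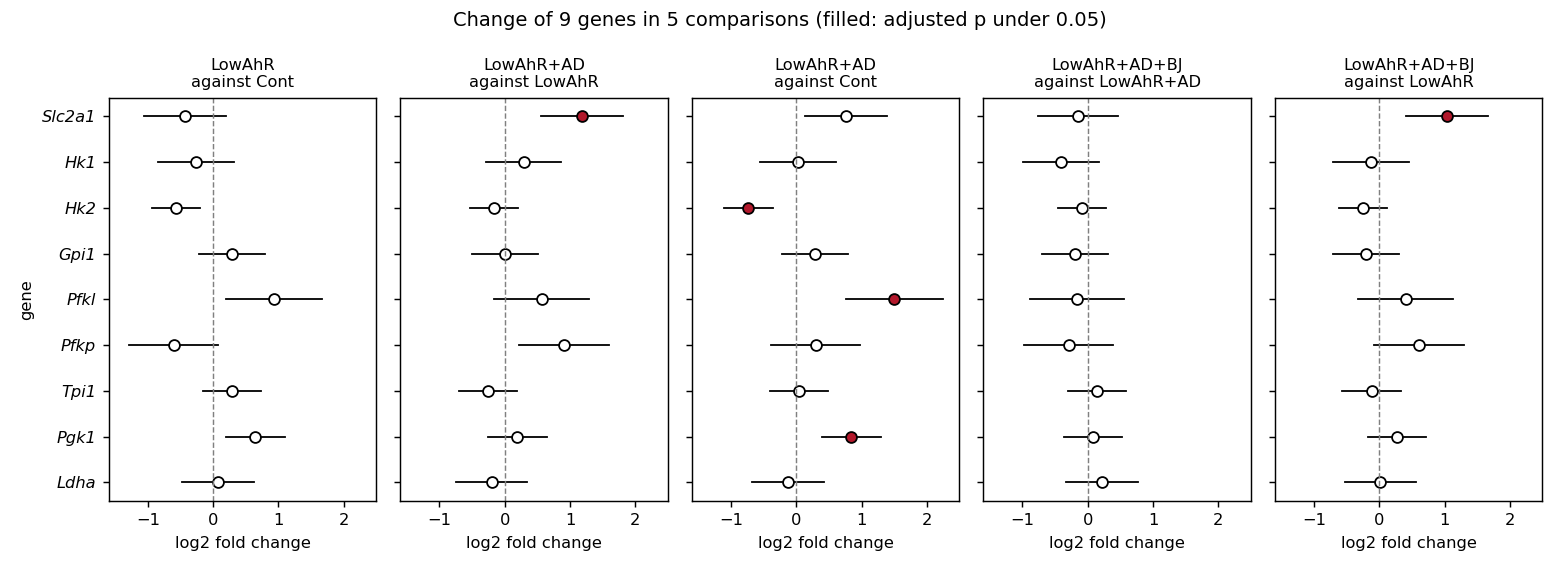
Log2 fold change of the 9 genes (points) with 95% intervals (lines) in 5 comparisons from edgeR; filled points had an adjusted p under 0.05 over all tested rows. Filled are Slc2a1 in LowAhR+AD and in LowAhR+AD+BJ against LowAhR, and Hk2, Pfkl and Pgk1 in LowAhR+AD against Cont; the comparisons share groups and are not independent.

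Eno1, the gene of the broadly expressed enolase, was listed at 0 in all 16 libraries. Enolase is part of glycolysis in every cell, and the listed 0 cannot be read as absence. The tables held Eno1b in 2 rows, and the second of these stood directly after Eno1 and before Rere, which lies on chromosome 4 like Eno1, while RefSeq places Eno1b on chromosome 18. Of the 75-base stretches in the last 400 bases of the Eno1 transcript, 74.9% were also found in Eno1b, so that short reads from both genes cannot be told apart there. The rows of Eno1b, named after their values were seen, had 30.2 ± 7.27 and 32.9 ± 6.87 CPM in Cont, 42.0 ± 10.3 and 41.2 ± 7.71 in LowAhR, 48.2 ± 10.7 and 51.6 ± 13.5 in LowAhR+AD, and 56.9 ± 14.0 and 62.8 ± 14.8 in LowAhR+AD+BJ (SD, n = 4). Neither row passed the test in a comparison, and in LowAhR+AD against Cont the log2 fold changes were 0.67 and 0.65 (edgeR adjusted p = 0.0775 and 0.0731). Which of the genes these counts came from was not tested.

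Around these genes, 89 other genes of glucose metabolism were listed in 8 lists, and 85 were tested. In LowAhR+AD against LowAhR, 3 of the 85 rose and 14 fell (3.53% and 16.5%, beside 6.42% and 6.21% of all tested rows), with a median log2 fold change of -0.40 against 0.038 over all rows. Without LowAhR+AD replicate 1, 5 rose and 18 fell, and 16 of the 17 calls were kept, the exception being Pgls. Of 15 other glycolytic enzymes 1 rose and 5 fell, or 6.67% and 33.3%. Pgam1, the phosphoglycerate mutase of most tissues, rose by 1.20 (edgeR adjusted p = 0.00478), from 56.7, 45.4, 69.5 and 55.0 CPM in LowAhR to 216, 114, 88.0 and 103 CPM in LowAhR+AD. All 4 LowAhR+AD libraries lay above every LowAhR library, as they did for 8.92% of all tested rows. The highest value was that of replicate 1, and without it Pgam1 rose by 0.84 (edgeR adjusted p = 0.00792). Eno3, the muscle enolase, fell by 2.88 (edgeR adjusted p = 0.00158) from 432 ± 63.8 to 58.9 ± 38.5 CPM. Pgam2, the muscle mutase, fell by 2.82 (edgeR adjusted p = 0.00148). Those that fell also included Pfkm by 2.18, Aldoa by 1.10 and Ldhb by 0.98. At the phosphofructokinase step, the muscle subunit Pfkm thus fell in this comparison, while Pfkl and Pfkp had log2 fold changes of 0.56 and 0.91 that did not pass. Gapdh could not be judged by its row, because 79.1% of the 75-base stretches at its transcript end also occur in 66 other annotated genes.

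**Figure D4:**
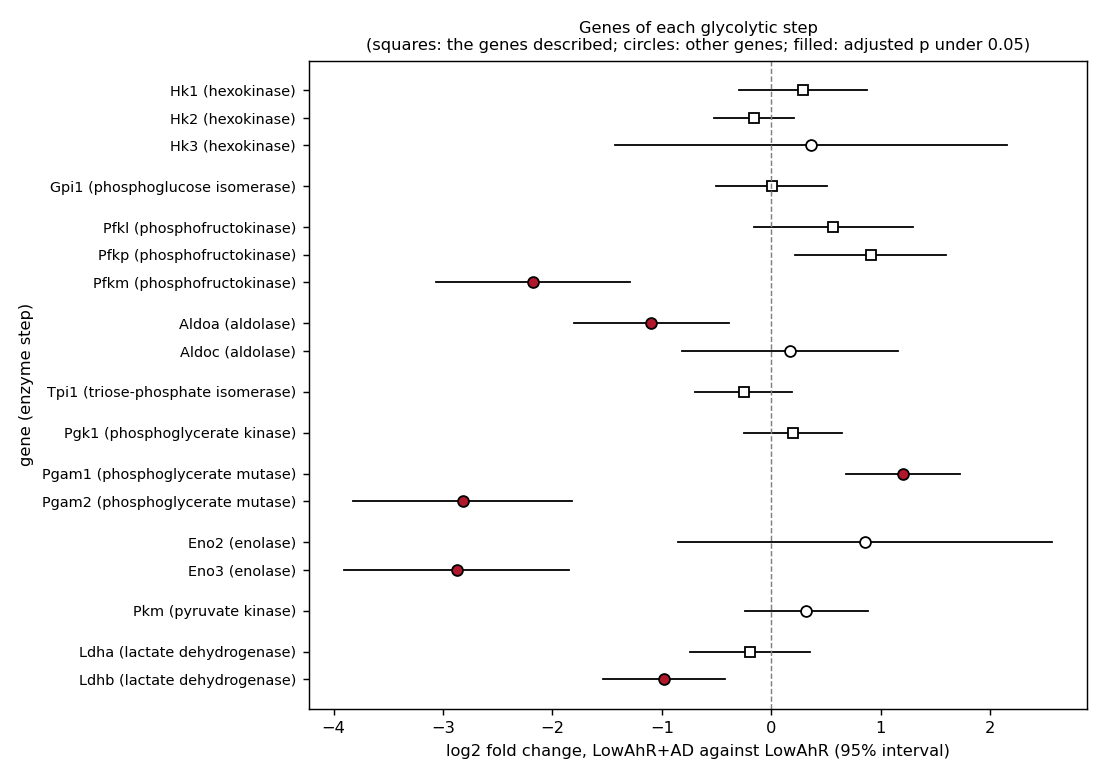
Difference between LowAhR+AD and LowAhR as log2 fold change (points) with 95% intervals (lines) for genes of each glycolytic step from edgeR; squares are the genes described in detail, circles other genes, filled symbols had an adjusted p under 0.05. The filled symbols to the left are Pfkm, Aldoa, Pgam2, Eno3 and Ldhb, and the one to the right is Pgam1.

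Of the 9 other glucose transporters, 1 fell in LowAhR+AD against LowAhR: Slc2a4, the insulin-dependent carrier of muscle and fat, by 1.43 (edgeR adjusted p = 0.0324), and by 2.21 without LowAhR+AD replicate 1. Slc5a1, the sodium-coupled glucose carrier, rose by 2.19 in LowAhR+AD+BJ against LowAhR (edgeR adjusted p = 0.0333), and its level was 11.6 ± 6.03 CPM in LowAhR and 52.9 ± 21.0 in LowAhR+AD+BJ (SD, n = 4). In LowAhR+AD against LowAhR, Slc5a1 differed by 1.28 (edgeR adjusted p = 0.155), and without LowAhR+AD replicate 1 by 1.65 (edgeR adjusted p = 0.0204). LowAhR+AD+BJ differed from LowAhR+AD by 0.91 (edgeR adjusted p = 0.614). Against Cont, Slc5a1 in LowAhR+AD differed by only 0.26 (edgeR adjusted p = 0.79), and by 0.63 without LowAhR+AD replicate 1 (edgeR adjusted p = 0.318). Of 6 carriers of lactate and pyruvate, the mitochondrial pyruvate carrier subunits Mpc1 and Mpc2 fell in LowAhR+AD against LowAhR, by 1.26 and 0.92 (edgeR adjusted p = 0.00392 and 0.00624). Of 12 regulators of phosphofructokinase and pyruvate dehydrogenase, Pdk4 fell by 4.08 (edgeR adjusted p = 0.0110). Pdk4 encodes a kinase that shuts off pyruvate dehydrogenase. In the list of 11 glycogen genes, 3 fell: Pygm by 2.29, Gyg by 1.57 and Ugp2 by 1.27. Of 6 tested genes of gluconeogenesis, Fbp2, a muscle fructose bisphosphatase, fell by 3.20 (edgeR adjusted p = 0.00224).

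The pentose phosphate pathway makes NADPH and ribose from glucose 6-phosphate. All 7 of its listed genes had a higher fitted level in LowAhR+AD than in LowAhR. Of these 1 passed, Pgls, by 0.66 (edgeR adjusted p = 0.0403). Without LowAhR+AD replicate 1 the difference of Pgls was 0.45 (edgeR adjusted p = 0.116). That of Tkt turned from 0.22 to -0.30, so that the 7 no longer shared a direction. Against Cont, 4 of the 7 rose: Rpe by 1.20, G6pdx by 0.81, Pgd by 0.63 and Taldo1 by 0.59, or 57.1% beside 12.3% of all tested rows. Of 19 tested regulators and response genes of hypoxia and MYC, Hif1a, the oxygen-regulated subunit of HIF-1, rose by 1.26 in LowAhR+AD against LowAhR (edgeR adjusted p = 0.00932), and Bnip3, a hypoxia response gene, fell by 1.36 (edgeR adjusted p = 0.0137). Hif1a had 43.4, 58.5, 57.2 and 41.8 CPM in LowAhR, 161, 120.2, 85.6 and 116 CPM in LowAhR+AD, and 144, 142, 72.2 and 110.4 CPM in LowAhR+AD+BJ. Both DNCB groups thus lay above LowAhR without overlap. Over all tested rows, LowAhR+AD did so for 8.92% and LowAhR+AD+BJ for 8.91%. Over all lists, LowAhR+AD against Cont had 10 genes that rose and 14 that fell (11.8% and 16.5%, beside 12.3% and 9.47% of all tested rows), LowAhR+AD+BJ against LowAhR had 3 and 10 (3.53% and 11.8%, beside 3.64% and 3.12%), and the comparisons for the diet alone and for BJIKT had 0. The shares of the lists that rose against Cont and with BJIKT against LowAhR were thus close to those of all rows. In these last comparisons the lowest adjusted p in the lists was 0.0745 for Bpgm (log2 fold change 1.18) and 0.498 (edgeR), and 10 and 11 of the 85 genes had an unadjusted p under 0.05 (11.8% and 12.9%, beside 13.7% and 9.46% of all tested rows). Bpgm makes the bisphosphoglycerate of red blood cells, and all 5 red blood cell markers were higher in LowAhR than in Cont, with a median log2 fold change of 1.42 and an unadjusted p under 0.05 each; their part in the value of Bpgm was not tested. DESeq2 called 2 and 0 of the 85 there. In LowAhR+AD+BJ against LowAhR the muscle genes Pgam2, Eno3 and Pfkm fell by 2.45, 1.65 and 1.57 (edgeR adjusted p = 0.00581, 0.0403 and 0.0291). Hif1a and Ero1l rose in that comparison by 1.22 and 1.40 (edgeR adjusted p = 0.0163 and 0.0155). Of the 19 hypoxia and MYC genes, these 2 rose and 3 fell there (10.5% and 15.8%, beside 3.64% and 3.12% of all tested rows). Among the called genes of the lists, the largest rises in LowAhR+AD against Cont were those of Fbp1 and Ero1l, by 3.98 and 2.02 (edgeR adjusted p = 0.00761 and 0.000654). Fbp1 is an enzyme of gluconeogenesis, and Ero1l is an oxidase of the endoplasmic reticulum and a hypoxia response gene. Of the 19 hypoxia and MYC genes, 3 rose and 2 fell against Cont (15.8% and 10.5%, beside 12.3% and 9.47% of all tested rows). Those that fell were Mxi1 and Ndrg1, with log2 fold changes of -1.39 and -0.80 (edgeR adjusted p = 0.00049 and 0.0229).

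The makeup of the skin samples moved with the groups in which these genes were compared. The summed level of 14 skeletal muscle markers was 10857 to 19229 CPM in Cont, 14906 to 31723 in LowAhR, 617 to 5421 in LowAhR+AD and 4404 to 14516 in LowAhR+AD+BJ. All 14 fell in LowAhR+AD against LowAhR, in the same comparison as Eno3, Pgam2, Pfkm, Aldoa, Ldhb, Pygm, Fbp2 and Slc2a4. Of 14 hair follicle markers 13 rose and 1 fell in LowAhR+AD against Cont. The sum of the 14 was 586 to 1328 CPM in Cont, 420.5 to 10910.3 in LowAhR, 7255 to 27199 in LowAhR+AD and 6616 to 19091 in LowAhR+AD+BJ, with up to 7 of them at 0 in a Cont library. All 4 activated keratinocyte markers (Krt6a, Krt6b, Krt16 and Krt17) rose in LowAhR+AD against LowAhR, from 526 to 1735 CPM to 11012 to 32999 CPM in sum. Of 12 cell cycle markers 7 rose, from 229.6 to 331 CPM to 507 to 646 CPM. Neutrophil markers rose for 4 of 6 tested, from 53.3 to 84.4 CPM to 130.1 to 2453 CPM, and 7 of 8 adipocyte markers fell, from 7387 to 12115 CPM to 378 to 3846 CPM. Both low ends, 130.1 and 378 CPM, belonged to LowAhR+AD replicate 1. The other LowAhR+AD libraries had 733 to 2453 CPM of neutrophil and 2308 to 3846 CPM of adipocyte markers. LowAhR+AD replicate 3, the library lowest in Slc2a1 and Ldha within its group, also had the lowest muscle sum, 617 CPM. In the remaining lists, in LowAhR+AD against LowAhR, 0 of 14 hair follicle markers passed (edgeR), of which 4 had an unadjusted p under 0.05. Further, 2 of 7 sebaceous gland markers fell, 2 of 6 basal and suprabasal keratinocyte markers rose, 2 of 6 T cell markers fell, and 0 of 8 macrophage, 0 of 5 endothelial and 0 of 5 red blood cell markers passed (edgeR), of which 1, 1 and 0 had an unadjusted p under 0.05.

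Marker levels were also compared with Cont, from which Hk2 and Pgk1 differed without overlap. In LowAhR against Cont edgeR called 0 markers, but an unadjusted p under 0.05 was found for all 14 hair follicle, all 5 red blood cell and 6 of 8 adipocyte markers. Of the hair follicle markers 13 were higher and 1 was lower in LowAhR. The summed red blood cell markers were 1024 to 1411 CPM in Cont and 2728 to 4270.3 CPM in LowAhR, and the summed adipocyte markers 2932 to 5750.1 and 7387 to 12115 CPM, both without overlap. In LowAhR+AD against Cont, 2 of 5 red blood cell and 6 of 6 neutrophil markers rose, and 3 of 8 adipocyte and 9 of 14 skeletal muscle markers fell. The part of these markers in the values of Hk2, Pfkl and Pgk1 was not tested beyond the muscle and hair follicle fits that follow.

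With the mean level of the muscle markers as a covariate, the fitted difference of Slc2a1 between LowAhR+AD and LowAhR was 1.61 (standard error 0.48, edgeR adjusted p = 0.117), and with the hair follicle markers it was 1.09 (standard error 0.38, edgeR adjusted p = 0.0907). For LowAhR+AD against Cont, the muscle covariate gave -0.69 for Hk2, 1.41 for Pfkl and 1.27 for Pgk1 (edgeR adjusted p = 0.107, 0.0804 and 0.0113), and the hair follicle covariate gave -0.78, 1.49 and 0.99 (edgeR adjusted p = 0.172, 0.207 and 0.159). The sizes moved by less than 1.5 times on the log2 scale except for Pgk1 under the muscle covariate, from 0.84 to 1.27, and of these 8 fits only that of Pgk1 with the muscle covariate passed the test. The marker levels differ with the groups themselves, so that the part of cell makeup in these results was not separated by such fits. The part of activated keratinocyte, neutrophil and cell cycle markers in the values of Slc2a1, Hk2, Pfkl and Pgk1 was not tested.

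**Figure D5:**
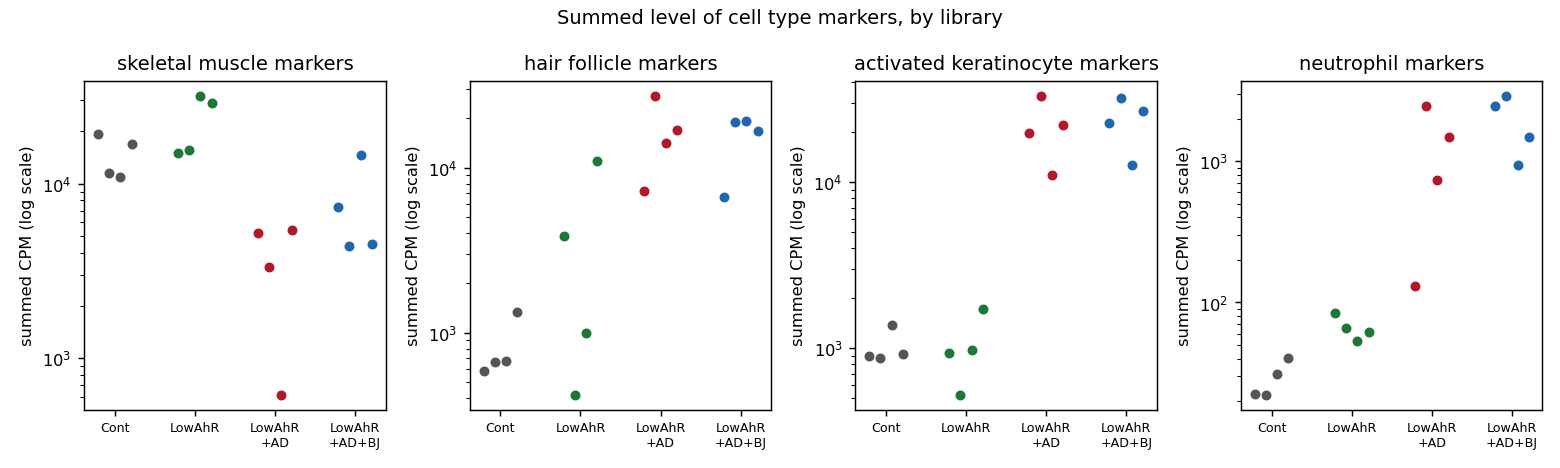
Summed CPM of the markers of skeletal muscle, hair follicle, activated keratinocytes and neutrophils in each library (points), on a log axis. In LowAhR+AD the muscle sum was 617 to 5421 CPM and the activated keratinocyte sum 11012 to 32999 CPM, against 14906 to 31723 and 526 to 1735 CPM in LowAhR.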

How the data were processed

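QuantSeq libraries of dorsal skin RNA from 4 groups of 4 samples were analysed. Per library, the authors deposited raw counts of reads by gene symbol, without normalization. The submitters' processing notes name Bowtie2, bedtools and the build mm10 (GRCm38); the treatment of strand and of reads that map to several genes is not given in the sources used here. Groups and replicate numbers were taken from the sample labels. Of 23282 rows with 23238 symbols (35 listed in several rows), edgeR 4.0.16 in R 4.3.3 kept 14854 by filterByExpr (minimum count 10, minimum total 15), with 99.9% or more of the counts. TMM factors were 0.892 to 1.16. The quasi-likelihood test was run with all 16 libraries in 1 model. Levels are CPM on TMM-scaled library sizes, and log2 CPM used a prior count of 2. Ratios of isoenzymes were compared by exact permutation tests, adjusted over 15. DESeq2 1.42.0, limma voom 3.58.1, other scaling factors and filters, covariates and left-out libraries were alternatives. Replicates differed far beyond sampling noise (chi-square per degree of freedom 16.5 to 295), so each library was counted once. Scripts were tested on simulated data.

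All 10 genes are named. From each pathway list and comparison the rule allowed the 2 highest and 2 lowest log2 fold changes among called genes, or else the gene with the lowest p. Aldoa, Ldhb, Pfkm, G6pdx, Pgd, Rpe and Taldo1 are given to complete a count, and Tkt because its sign turned without LowAhR+AD replicate 1. Markers are named only as members of their lists. The genes, lists and comparisons were chosen with earlier results of these data known. RefSeq (GRCm38.p6) held all 10 genes and supplied the promoter windows; GENCODE transcripts of the same build were searched for shared stretches of 75 bases.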

Additional observations from a re-analysis of the deposited data

Results flagged for a closer look

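In 48 groups of 4 libraries (9 genes and 3 ratios in 4 groups), the gap between the highest or lowest library and its nearest neighbour was compared with the whole range of the group. The gap passed Dixon's 95% critical value for 4 samples in 2 of the 48, and chance alone passes it in about 1 of 20 groups. Pfkp had 389.8 CPM in LowAhR+AD replicate 1, where the next library had 158 CPM, and the gap was 0.849 of the range. That library also lacked counts for 32.6% of the genes expected at 20 to 40 counts. The log2 ratio of Ldha to Ldhb was 3.77 in Cont replicate 4, against 2.57 to 2.67 in the other Cont libraries, and the gap was 0.921 of the range.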

How the results depend on the processing

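The fits of 9 genes in 5 comparisons were repeated under 11 alternatives and with each library left out, and 787 of 855 log2 fold changes kept their direction and their side of the threshold. The number of the 9 genes called in LowAhR+AD against LowAhR, 1, was 2 with DESeq2 (Slc2a1 and Pfkp), 0 with the muscle covariate, 0 with the hair follicle covariate, 0 with only the 8 libraries compared, and 0 to 2 with a library left out. In LowAhR+AD against Cont it was 3, became 1 with the muscle covariate and 0 with the hair follicle covariate, and was 3 to 4 with a library left out. In LowAhR+AD+BJ against LowAhR it was 1, became 0 with each covariate and with the replicate block, and was 0 to 1 with a library left out. The main fits did not pair libraries by replicate number. Deviations of same-numbered libraries from their group means correlated at -0.055 to 0.17. Pairs with different numbers were not compared, so these values cannot settle whether the numbers pair the libraries. As a block, the replicate number moved Slc2a1 in LowAhR+AD+BJ against LowAhR to 1.06 (edgeR adjusted p = 0.0594) and changed no other call of the 9 genes. The cause of these shifts was not tested.

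Signs turned only for uncalled differences. With the muscle covariate these became -0.014 for Ldha in LowAhR against Cont, 0.42 and 0.19 for Tpi1 and Ldha in LowAhR+AD against LowAhR, -0.14 and -0.12 for Tpi1 and Pgk1 in LowAhR+AD+BJ against LowAhR+AD, -0.066 and 0.17 for Hk1 and Ldha in LowAhR+AD against Cont, and 0.071 and 0.28 for Gpi1 and Tpi1 in LowAhR+AD+BJ against LowAhR. With the hair follicle covariate they became -0.024 and 0.026 for Gpi1 and Ldha in LowAhR+AD against LowAhR, -0.19 and 0.26 for Tpi1 and Ldha in LowAhR+AD against Cont, and 0.11 for Hk1 in LowAhR+AD+BJ against LowAhR. Gpi1 in LowAhR+AD against LowAhR was -0.0074 with RLE factors, -0.048 with upper-quartile factors, -0.0081 with the strict filter of 10 counts in every library, -0.0075 with DESeq2 and -0.0030 with the 8 libraries alone. Ldha in LowAhR+AD+BJ against LowAhR was -0.0013 with RLE factors, -0.018 with upper-quartile factors, -0.0023 with the strict filter, -0.0013 with DESeq2 and -0.019 with the replicate block. Upper-quartile factors gave -0.035 for Hk1 and -0.016 for Tpi1 in LowAhR+AD against Cont. With a library left out, the ranges that crossed 0 were -0.0072 to 0.21 for Ldha in LowAhR against Cont; -0.20 to 0.18 for Gpi1 and -0.33 to 0.017 for Ldha in LowAhR+AD against LowAhR; -0.35 to 0.018 for Slc2a1, -0.17 to 0.010 for Hk2, -0.48 to 0.27 for Pfkp and -0.065 to 0.20 for Pgk1 in LowAhR+AD+BJ against LowAhR+AD; -0.23 to 0.20 for Hk1, -0.28 to 0.48 for Pfkp, -0.023 to 0.093 for Tpi1 and -0.24 to 0.091 for Ldha in LowAhR+AD against Cont; and -0.23 to 0.017 for Hk1, -0.25 to 0.047 for Tpi1 and -0.11 to 0.14 for Ldha in LowAhR+AD+BJ against LowAhR.

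Of all tested rows, LowAhR against Cont gave 0 calls, but 491 with DESeq2, 250 with the 8 libraries alone, 45 with the strict filter and up to 159 with a library left out (LowAhR replicate 2). LowAhR+AD against LowAhR gave 1876, but 90 and 902 with the muscle and hair follicle covariates, 765 with the 8 libraries alone, and 1128 at the fewest with a library left out. LowAhR+AD+BJ against LowAhR+AD gave 0, and 17 with DESeq2. LowAhR+AD against Cont gave 3233, but 1155 and 131 with the covariates. LowAhR+AD+BJ against LowAhR gave 1005, but 1676 with DESeq2, 140 and 281 with the covariates and 414 at the fewest with a library left out. In the pathway lists, LowAhR against Cont gave 0 calls, but 2 with DESeq2, 1 with the 8 libraries alone and 0 to 2 with a library left out. The 17, 24 and 13 calls of the 3 comparisons with DNCB libraries became 0, 8 and 0 with the muscle covariate, and the 24 and 13 calls became 1 and 2 with the hair follicle covariate; the 13 calls were 3 to 18 with a library left out.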
